A study of Mus musculus with 8 samples.

Results

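The zinc-dependent histone deacetylases were examined in the hearts of mouse embryos with and without SIRT1. The embryos were taken at E18.5, shortly before birth. The family was taken as 10 listed genes, and every non-control array probe whose accession maps to 1 of them was kept. No probe was matched to *Hdac1*, which was not analysed here. The other 9 genes had 14 probes of the 41174 on the array, and 13 of these 14 were well above background and were among the 25624 probes tested. The groups were 4 WT hearts and 4 hearts of SIRT1 KO embryos, 1 heart per array. The knockout is a whole-body germ-line deletion, so that it is present in all cell types of the embryo, and the embryos came from crosses of heterozygous parents. All were E18.5 embryos of the C57BL/6 strain, the mice were kept on a chow diet, and no treatment was given. Total RNA of the whole heart was labeled with Cy3 and hybridized to one-color Agilent mouse arrays. The question asked was whether the RNA of these deacetylases differed between the genotypes.

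Histone deacetylases remove acetyl groups from the lysines of histones and other proteins, which in general makes chromatin less permissive for transcription. Class I enzymes (HDAC1, HDAC2, HDAC3 and HDAC8) are mostly nuclear, and HDAC1, HDAC2 and HDAC3 work inside the corepressor complexes Sin3, NuRD, CoREST and NCoR/SMRT. Class IIa enzymes (HDAC4, HDAC5, HDAC7 and HDAC9) have little catalytic activity of their own, bind MEF2 transcription factors and leave the nucleus once kinases such as CaMKII and protein kinase D phosphorylate them. In the heart HDAC5 and HDAC9 are known as signal-responsive brakes on hypertrophic growth and on fetal gene expression. HDAC6, of class IIb, deacetylates tubulin in the cytoplasm, and HDAC11 is the only class IV enzyme. All of these need zinc, whereas SIRT1 belongs to class III, whose members need NAD.

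Signals are given as log2 of the processed intensity after subtraction of the 75th percentile of the array. A level of 0 is therefore the 75th percentile, and levels are comparable between hearts for 1 probe and not between probes. Differences are SIRT1 KO minus WT on that log2 scale. Each genotype has a slide of its own, scanned on a day of its own, so that effects of slide, day of scan and genotype cannot be told apart in any value below. *Sirt1* itself did not mark the knockout. The hearts labelled SIRT1 KO had a level of 0.58 ± 0.14 (SD, n = 4) on probe A_52_P358612 against 0.04 ± 0.19 (SD, n = 4) for WT, so that the difference was 0.54 (SE 0.11, adjusted p = 0.0323). This call passed under 9 of 22 alternative settings and in 2 of the 8 fits with 1 array left out. Of the 22 settings 16 recompute the fold change. The other 6 change the filter, the test, the source table or the threshold and leave it as it is by construction, and 2 of these, the series table and the looser threshold, cannot lose a call. On probe A_51_P141152 the log2 fold change was −0.11 (SE 0.11, adjusted p = 0.589). Where the probes lie relative to the deleted part is not given in the sources used here, so they do not check the labels. Hearts of that group are called by their label throughout.

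None of the 13 tested deacetylase probes differed between the genotypes at an adjusted p under 0.05 (limma with Benjamini-Hochberg adjustment over all tested probes), where 4.91% of all tested probes did, 3.98% with SIRT1 KO higher. The fitted log2 fold changes ran from −0.15 for *Hdac3* to 0.34 for *Hdac5*, with standard errors of 0.07 to 0.15 and adjusted p values of 0.106 to 0.941. At an unadjusted p under 0.05 there were 2 of 13, against 21.5% of all tested probes, and both were of class IIa. The 95% confidence intervals of the 13 probes together span −0.31 to 0.57, which as a ratio of SIRT1 KO over WT is 0.807 to 1.49. With 1 probe per gene the median log2 fold change of the 9 deacetylases was 0.04 and that of all 13600 tested genes −0.01. The median of the family was 0.076 without SIRT1 KO replicate 1, 0.086 without SIRT1 KO replicate 3 and 0.097 with the mean of the probes of a gene, and it was below 0 with median scaling (−0.092) and with no scaling (−0.18). The median size of the change, whatever its sign, was 0.12 for the deacetylases and 0.12 for all tested genes.

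**Figure D1:**
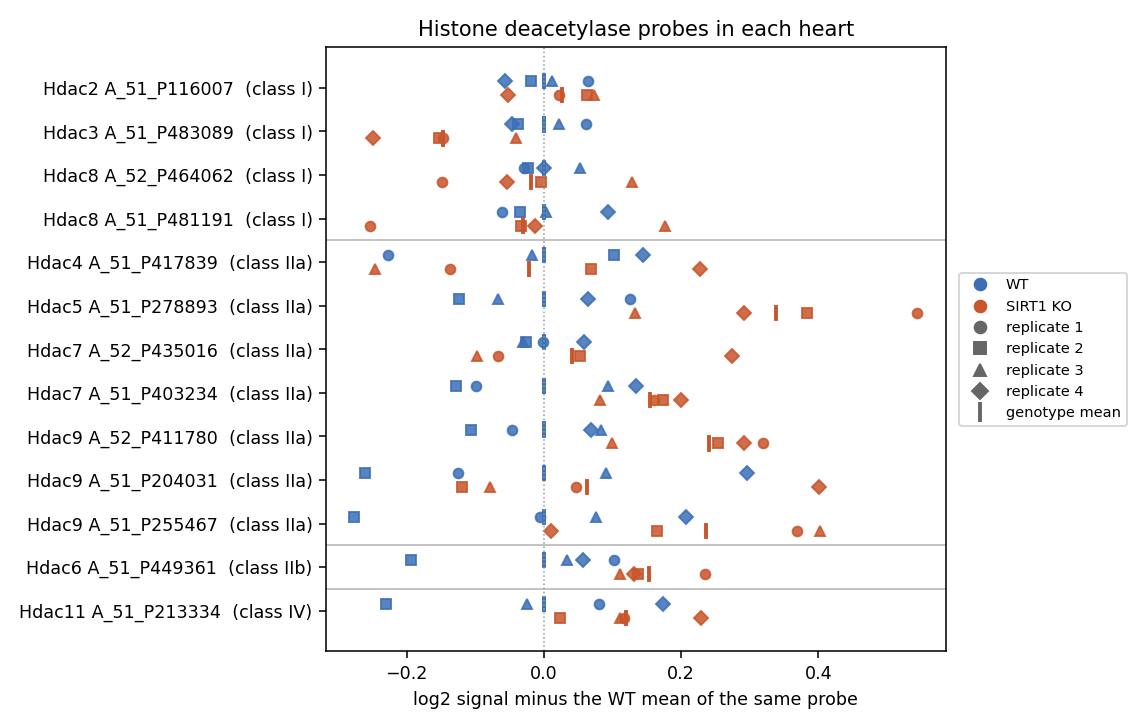
Log2 signal of the 13 tested deacetylase probes in each heart, as the difference from the WT mean of the same probe (x axis), with 1 row per probe, WT hearts in blue and SIRT1 KO hearts in orange. Symbols give the replicate number and vertical strokes the genotype means. For *Hdac5*, *Hdac9* (A_52_P411780) and *Hdac6* all 4 SIRT1 KO hearts lie to the right of the 4 WT hearts, by gaps of 0.0064, 0.016 and 0.0086.

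The genotypes did not overlap for 3 of the 13 probes, 1 each of *Hdac5*, *Hdac9* and *Hdac6*, all higher in the SIRT1 KO hearts, where 8.63% of all tested probes did not overlap with SIRT1 KO higher. The gap between the lowest SIRT1 KO heart and the highest WT heart was 0.0064 for *Hdac5*, 0.016 for *Hdac9* and 0.0086 for *Hdac6*. These gaps are far smaller than the SD within either genotype for the same probes, which was 0.055 to 0.17. SIRT1 KO replicate 3 was the lowest SIRT1 KO heart for all 3 probes.

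Of the class I enzymes, *Hdac3*, the catalytic subunit of the NCoR/SMRT corepressor, was the one with the lowest fold change of the family. Its log2 signal was 1.67, 1.57, 1.63 and 1.56 in WT hearts 1 to 4 and 1.46, 1.45, 1.56 and 1.36 in SIRT1 KO hearts 1 to 4. All 4 SIRT1 KO hearts were below the WT mean, and only SIRT1 KO replicate 3 reached into the WT range. The fitted change was −0.15 (95% confidence interval −0.31 to 0.02), with an adjusted p of 0.274 and an exact two-sided permutation p of 0.0571. It was −0.28 with median scaling (adjusted p = 0.0688), −0.37 with no scaling, where it passed (adjusted p = 0.0220), and −0.097 without SIRT1 KO replicates 1 and 4 (adjusted p = 0.662).

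*Hdac2*, which shares the Sin3, NuRD and CoREST complexes with HDAC1 and is linked to hypertrophic growth of the heart, was nearly level. Its signal was −1.23, −1.32, −1.29 and −1.35 in WT hearts 1 to 4 and −1.28, −1.23, −1.22 and −1.35 in SIRT1 KO hearts 1 to 4. The SIRT1 KO hearts thus lay almost entirely within the WT range. Its log2 fold change was 0.03 (95% confidence interval −0.13 to 0.18, adjusted p = 0.855).

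*Hdac8*, an X-linked class I enzyme that acts on cohesin and on smooth muscle proteins, has 2 probes. On A_52_P464062 the WT hearts 1 to 4 had −2.68, −2.67, −2.59 and −2.65 and the SIRT1 KO hearts −2.80, −2.65, −2.52 and −2.70. On A_51_P481191 the WT hearts had −3.32, −3.29, −3.26 and −3.17 and the SIRT1 KO hearts −3.51, −3.29, −3.08 and −3.27. On both probes SIRT1 KO replicate 1 was the lowest of all 8 hearts and SIRT1 KO replicate 3 the highest, so that the SIRT1 KO hearts enclosed the WT hearts. The log2 fold changes were −0.02 (95% confidence interval −0.19 to 0.16, adjusted p = 0.910) and −0.03 (95% confidence interval −0.25 to 0.19, adjusted p = 0.884). With no scaling they were −0.24 (adjusted p = 0.0518) and −0.25, where the second passed (adjusted p = 0.0497). Both were above 0 with normexp (0.094 and 0.062) and without SIRT1 KO replicate 1 (0.024 and 0.044).

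Of the 7 class IIa probes 6 had a higher mean in the SIRT1 KO hearts, and none passed the test. Over all tested probes 51.7% had a fold change above 0. The median over the 4 class IIa genes was 0.14, with 3 genes above 0, while the median over the 3 class I genes was −0.02. With median scaling 4 of the 7 class IIa probes were above 0 and with no scaling 3. These 2 scalings move every probe by the same amount, and the median of all tested probes lay at −0.12 and −0.21 under them. Relative to the median of all tested probes 6 of the 7 class IIa probes were higher as reported, and 5 with quantile normalization or cyclic loess.

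*Hdac5*, a class IIa enzyme that represses MEF2 target genes in cardiomyocytes, had the highest fold change of the family. The log2 signal of its probe was 3.13, 2.88, 2.94 and 3.07 in WT hearts 1 to 4 and 3.55, 3.39, 3.13 and 3.29 in SIRT1 KO hearts 1 to 4. SIRT1 KO replicate 1 was the highest, and SIRT1 KO replicate 3 was barely above WT replicate 1. This is a log2 fold change of 0.34 (SE 0.10, 95% confidence interval 0.10 to 0.57), a ratio of 1.26, with an adjusted p of 0.106 and an exact two-sided permutation p of 0.0286, the smallest that 4 against 4 hearts can give. Without SIRT1 KO replicate 3 it passed the test (0.41, adjusted p = 0.0469), and with arrays weighted by their fit it also passed (0.39, adjusted p = 0.0349). In the other 20 of 22 alternatives it did not. It was above 0 in all 16 that recompute the fold change, with the lowest values under median scaling (0.20, adjusted p = 0.197), normexp (0.22, adjusted p = 0.108) and no scaling (0.12, adjusted p = 0.527).

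*Hdac9*, whose loss is known to sensitize the adult heart to hypertrophic stimuli, has 4 probes for transcripts under 2 accessions. The brightest, A_52_P411780, had −0.32, −0.38, −0.19 and −0.21 in WT hearts 1 to 4 and 0.04, −0.02, −0.18 and 0.02 in SIRT1 KO hearts 1 to 4. All SIRT1 KO hearts were above all WT hearts, with SIRT1 KO replicate 3 again next to the WT range. The log2 fold change was 0.24 (SE 0.08, 95% confidence interval 0.06 to 0.42), a ratio of 1.18, with an adjusted p of 0.133 and an exact two-sided permutation p of 0.0286. After normexp background correction, a setting chosen after the data were seen, it passed the test (0.29, adjusted p = 0.0324). With median scaling it was at 0.11 (adjusted p = 0.380) and with no scaling at 0.02 (adjusted p = 0.895).

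The other *Hdac9* probes were dimmer. A_51_P204031, for the same accession, ranged from −3.57 to −3.01 in WT hearts and from −3.42 to −2.90 in SIRT1 KO hearts. Its log2 fold change of 0.06 (SE 0.15, adjusted p = 0.847) changed sign under 8 of the 16 alternatives that recompute it. A_51_P255467, for the other accession, had −4.29, −4.56, −4.21 and −4.08 in WT hearts 1 to 4 and −3.91, −4.12, −3.88 and −4.27 in SIRT1 KO hearts 1 to 4. Here the genotypes overlapped, since SIRT1 KO replicates 2 and 4 lay among the WT hearts, and the log2 fold change was 0.24 (SE 0.13, adjusted p = 0.319). It was 0.14 without WT replicate 2, 0.10 with median scaling, 0.069 with quantile normalization and 0.017 with no scaling. The fourth probe, A_52_P76792, was not well above background on any of the 8 arrays and has no fold change. For the 13 tested probes the error that the scanner software assigns to the signal was at most 14.2%, and for this probe 72.5% to 99.8%.

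RefSeq (GRCm38.p6) promoters, from 250 bases before to 50 bases after a start site, were matched for 8 of the member genes, 12 promoters in all, and those of *Hdac5* and *Hdac9* are shown because these were the members with an unadjusted p under 0.05. Capitals mark matches, on either strand, to the GC box GGGCGG, the CCAAT box CCAAT, the TATA box TATAAA, the cAMP response core TGACG, the E-box CACGTG and the MEF2 site.
Hdac5, chr11:102230123-102230422, minus strand: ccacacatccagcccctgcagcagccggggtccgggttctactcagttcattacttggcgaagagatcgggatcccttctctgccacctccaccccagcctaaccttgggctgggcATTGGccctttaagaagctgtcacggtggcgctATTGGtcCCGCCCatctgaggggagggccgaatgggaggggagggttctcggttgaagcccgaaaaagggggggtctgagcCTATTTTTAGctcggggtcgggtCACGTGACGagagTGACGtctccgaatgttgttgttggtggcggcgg
Hdac9, chr12:34528840-34529139, minus strand: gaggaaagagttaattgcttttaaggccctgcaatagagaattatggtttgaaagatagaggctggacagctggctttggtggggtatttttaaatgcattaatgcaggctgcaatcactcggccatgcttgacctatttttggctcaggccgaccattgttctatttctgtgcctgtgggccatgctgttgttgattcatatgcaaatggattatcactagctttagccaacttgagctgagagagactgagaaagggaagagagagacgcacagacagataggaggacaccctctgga
Hdac9, chr12:34917046-34917345, minus strand: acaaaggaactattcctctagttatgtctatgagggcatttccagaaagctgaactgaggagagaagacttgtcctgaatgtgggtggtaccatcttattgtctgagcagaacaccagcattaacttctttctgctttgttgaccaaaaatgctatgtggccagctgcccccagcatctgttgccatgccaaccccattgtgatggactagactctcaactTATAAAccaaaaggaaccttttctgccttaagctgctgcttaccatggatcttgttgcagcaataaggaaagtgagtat
The *Hdac5* promoter held 1 match to the MEF2 site, CTATTTTTAG, which begins 20 bases before the start site, and it was the only one of the 12 member promoters with such a match, where 3.19% of all 32851 promoters have 1. It also held 1 GC box, 2 CCAAT boxes, 1 E-box and 2 matches to TGACG, of which 1 overlaps the E-box. Its base composition was 60.7% G or C with 18 CpG dinucleotides, beside a median of 52.7% and 7 over all promoters. The 2 *Hdac9* promoters were at 45.3% and 44.0% with 3 and 0 CpG, and they held no match but 1 TATA box in the second. The 2 class IIa genes with the highest fold changes thus have promoters that differ in composition and in these letters. Among the 12 member promoters 6 held a GC box, 5 a CCAAT box, 3 TGACG, 2 a TATA box and 1 an E-box, against 35.7%, 37.4%, 20.8%, 13.6% and 7.15% of all promoters. A match is only a run of letters in this window and says nothing on whether a factor binds there.

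*Hdac4*, the class IIa enzyme best known from skeletal and growth-plate development, was nearly level on average. Its signal was −0.22, 0.11, −0.01 and 0.15 in WT hearts 1 to 4 and −0.13, 0.07, −0.24 and 0.23 in SIRT1 KO hearts 1 to 4. Both genotypes were spread widely and overlapped fully. The log2 fold change was −0.02 (SE 0.12, 95% confidence interval −0.30 to 0.26, adjusted p = 0.941) and turned positive when WT replicate 2 or 4 or SIRT1 KO replicate 1 or 3 was left out.

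*Hdac7*, which is needed in endothelial cells for the integrity of vessels, has 2 probes. On A_52_P435016, the brighter, the WT hearts 1 to 4 had 1.27, 1.24, 1.24 and 1.33 and the SIRT1 KO hearts 1.20, 1.32, 1.17 and 1.54, a log2 fold change of 0.04 (SE 0.09, adjusted p = 0.836) that was −0.04 without SIRT1 KO replicate 4. On A_51_P403234 the WT hearts had −1.08, −1.11, −0.89 and −0.85 and the SIRT1 KO hearts −0.82, −0.81, −0.90 and −0.78. Here all 4 SIRT1 KO hearts were above the WT mean, yet the groups overlapped through SIRT1 KO replicate 3, and the log2 fold change was 0.15 (SE 0.08, adjusted p = 0.322), or 0.02 with median scaling and −0.07 with no scaling. All 8 endothelial marker genes had a fold change below 0, none passed the test, and their summed signal was 50.2 to 59.6 times the 75th percentile in WT hearts and 44.4 to 53.5 in SIRT1 KO hearts. Its part in the *Hdac7* values was not tested, and in whole hearts fewer cells of a type and less RNA per cell cannot be told apart.

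For the 3 genes with several tested probes, the difference between 2 probes of a gene was compared between genotypes in 5 pairs. The genotype differences of the 2 probes differed from each other by 0.11 for *Hdac7*, by 0.01 for *Hdac8*, and by 0.18, 0.0044 and 0.17 for the 3 *Hdac9* pairs. None of the 5 passed an exact two-sided permutation test after Benjamini-Hochberg adjustment (adjusted p of 0.571 to 0.971). The smallest p of this test is 0.0286, so a pair that differed on its own could not have passed after adjustment over 5 pairs. The test therefore cannot show that the probes of a gene agree.

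*Hdac6*, the X-linked tubulin deacetylase, had 1.25, 0.95, 1.18 and 1.20 in WT hearts 1 to 4 and 1.38, 1.28, 1.26 and 1.28 in SIRT1 KO hearts 1 to 4. The SIRT1 KO hearts were close together and above every WT heart, and WT replicate 2 stood lowest. The log2 fold change was 0.15 (SE 0.08, 95% confidence interval −0.04 to 0.34), a ratio of 1.11, with an adjusted p of 0.324 and an exact two-sided permutation p of 0.0286. Without WT replicate 2 it was 0.089 (adjusted p = 0.551), with median scaling 0.02 and with no scaling −0.07.

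*Hdac11*, which removes long fatty acyl groups as well as acetyl groups, had −1.77, −2.08, −1.87 and −1.67 in WT hearts 1 to 4 and −1.73, −1.82, −1.74 and −1.62 in SIRT1 KO hearts 1 to 4. Every SIRT1 KO heart was above the WT mean, and the groups overlapped. Its log2 fold change was 0.12 (SE 0.10, 95% confidence interval −0.10 to 0.34, adjusted p = 0.516), and it was 0.043 without WT replicate 2 and −0.10 with no scaling.

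**Figure D2:**
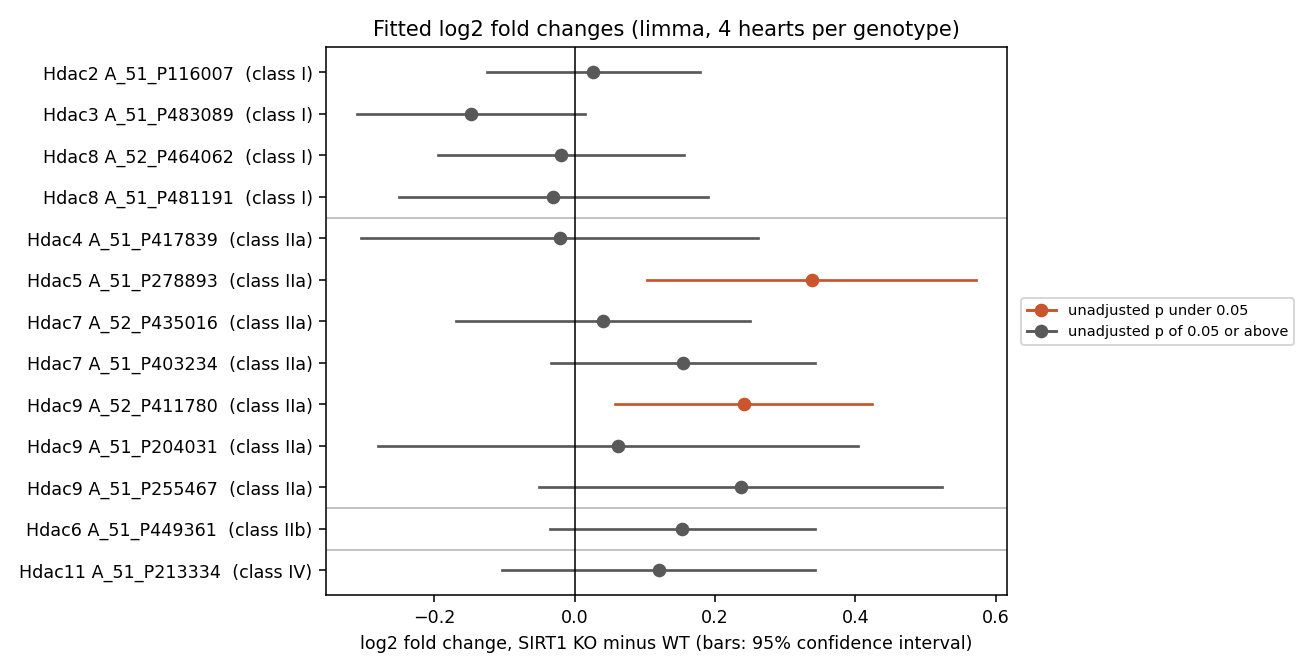
Fitted log2 fold change (SIRT1 KO minus WT, x axis) of each tested deacetylase probe, ordered by class, with 95% confidence intervals as bars from 4 hearts per genotype. The intervals of *Hdac5* (0.10 to 0.57) and *Hdac9* A_52_P411780 (0.06 to 0.42), drawn in orange, lie above 0 before adjustment, and the other 11 include 0.

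The ratio between 2 probes on the same array does not depend on the scaling of the arrays. The pairs below were picked after the values were seen and were not tested. The log2 signal of *Hdac5* over that of *Hdac3* was 1.46, 1.31, 1.31 and 1.51 in WT hearts 1 to 4 and 2.09, 1.93, 1.57 and 1.94 in SIRT1 KO hearts 1 to 4, a difference of 0.49 between the means. All SIRT1 KO hearts were above all WT hearts, again with SIRT1 KO replicate 3 nearest to them. These are the members with the highest and the lowest fold change, so a wide difference follows from the choice of the pair. The same difference was 0.39 for *Hdac9* over *Hdac3* and 0.36 for *Hdac5* over *Hdac4*, and 0.10 for *Hdac5* over *Hdac9*. The genotypes overlapped for *Hdac5* over *Hdac4* and for *Hdac5* over *Hdac9*.

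**Figure D3:**
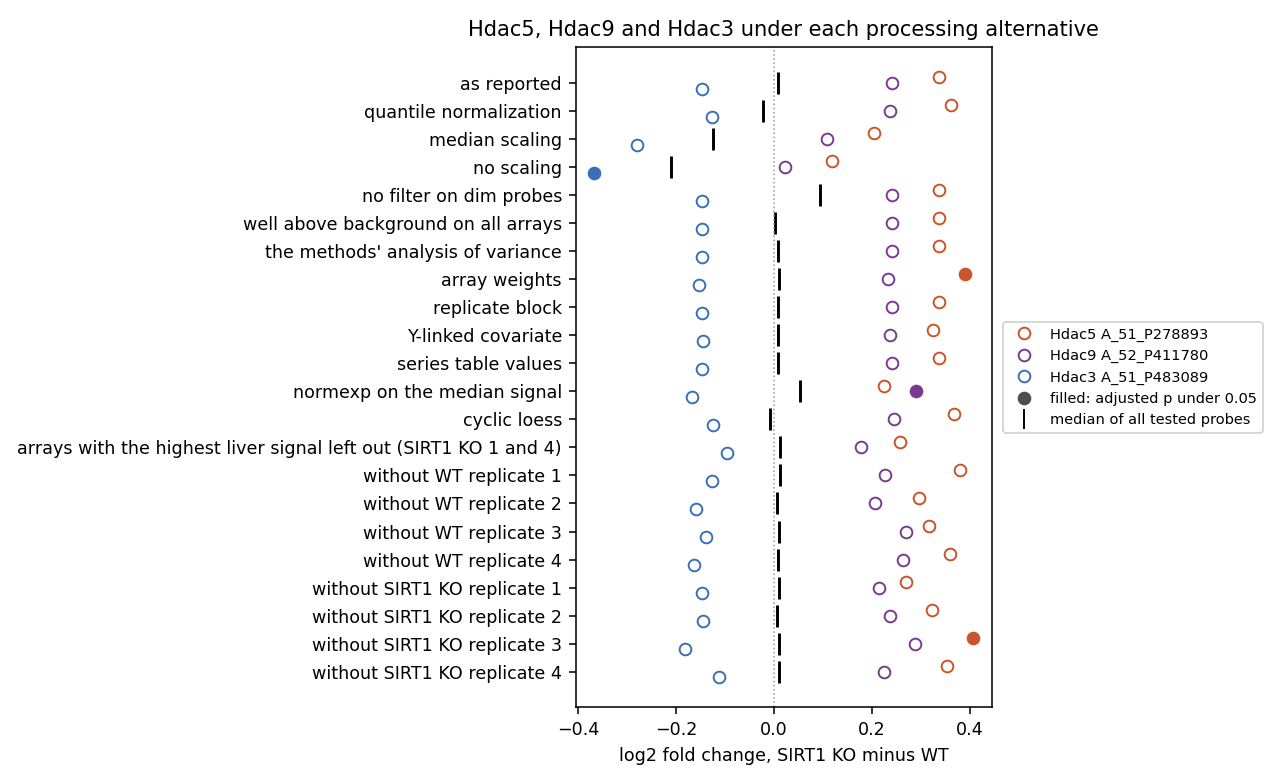
Log2 fold change (SIRT1 KO minus WT, x axis) of *Hdac5*, *Hdac9* A_52_P411780 and *Hdac3* under each processing alternative (rows), with filled symbols for an adjusted p under 0.05 and black strokes for the median of all tested probes. *Hdac5* and *Hdac9* stay above 0 and *Hdac3* below 0 in every row, while the median of all probes moves to −0.12 with median scaling and −0.21 without scaling.

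The arrays also differed in their 75th percentile and in cell type markers, and the relation of these to the deacetylase values was not tested. The 75th percentile was 939 to 1033 intensity units on WT arrays and 777 to 906 on SIRT1 KO arrays, with SIRT1 KO replicate 3 the lowest. Cardiomyocyte markers were all well above background, with a summed signal of 2104 to 2260 times the 75th percentile in WT and 2192 to 2568 in SIRT1 KO hearts. Of the 5 lung markers 3 (*Sftpb*, *Sftpa1*, *Nkx2-1*) were not above background on any array, and none of the 5 was tested. The summed signal of the 5 was 0.024 to 0.090 in WT and 0.065 to 0.12 in SIRT1 KO hearts. The summed liver markers were 4.05 to 13.4 in WT hearts and, in SIRT1 KO hearts 1 to 4, 59.8, 7.60, 4.92 and 29.5. Without SIRT1 KO replicates 1 and 4, a setting chosen after the data were seen, *Hdac5* was at 0.26 (adjusted p = 0.352) and *Hdac9* A_52_P411780 at 0.18 (adjusted p = 0.469), and 0 deacetylase probes passed. All 3 tested neural and Schwann markers were higher in SIRT1 KO hearts, 1 of them, *Sox10*, past the test (0.80, adjusted p = 0.0198), while *Dbh* was not above background on any array. Of the 6 tested erythroid markers 3 were above 0 and 3 below, with a median of −0.08 and a summed signal of 509 to 557 in WT and 440 to 538 in SIRT1 KO hearts, and 1 passed, the embryonic globin *Hbb-y* (0.92, adjusted p = 0.0078). The part of these cell types in the deacetylase values was not tested.

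SIRT1 KO replicate 2 had the Y-linked gene *Ddx3y* at −7.79, where the other 7 hearts had 0.78 to 1.04, and *Xist* at 4.02. In SIRT1 KO replicate 3 *Xist* was at −3.26 with *Ddx3y* at 0.78, where the remaining 6 hearts had *Xist* at −7.78 to −7.46. The X-linked members *Hdac6* and *Hdac8* stood at 1.28 and −2.65 (A_52_P464062) in SIRT1 KO replicate 2, within the range of the other SIRT1 KO hearts. With the mean Y-linked signal as a covariate *Hdac5* was at 0.32 (adjusted p = 0.211), *Hdac9* A_52_P411780 at 0.24 (adjusted p = 0.246) and *Hdac6* at 0.16 (adjusted p = 0.431).

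The subunits, partners and targets of the deacetylases were read from 9 lists with 117 tested genes. At an adjusted p under 0.05 there were 3 of these genes, 2 higher and 1 lower in SIRT1 KO hearts, or 2.56%, where 4.62% of all tested genes passed, 3.71% with SIRT1 KO higher. At an unadjusted p under 0.05 there were 21, or 17.9%, against 20.4% of all tested genes. The lists as a whole thus did not pass more often than other genes, and their median log2 fold change was −0.02.

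The corepressor complexes that carry class I enzymes had 0 genes past the test, and at an unadjusted p under 0.05 there were 2 in the Sin3 list, 3 in NuRD, 2 in CoREST and 1 in NCoR/SMRT. In the Sin3 list 7 of 15 genes were above 0 and 8 below, with a median of −0.02, and the smallest p values were those of the scaffold *Sin3a* (0.22, adjusted p = 0.0984) and the histone chaperone *Rbbp4* (−0.18, adjusted p = 0.172). In the NuRD list 5 of 10 were above 0, with a median of −0.01, led by *Mta1* (0.37, adjusted p = 0.0866) and the remodeling ATPase *Chd4* (0.23, adjusted p = 0.178). In the CoREST list 7 of 10 were above 0, with a median of 0.13, and *Zmym3* was at 0.26 (adjusted p = 0.125). In the NCoR/SMRT list, the complex of HDAC3, 2 of 5 were above 0, with a median of −0.05, and the exchange factor *Tbl1xr1* was at −0.28 (adjusted p = 0.123) and *Gps2* at 0.16 (adjusted p = 0.233). The 14 lysine acetyltransferases, which work against the deacetylases, had 8 above 0 and a median of 0.05, and none passed, with 4 at an unadjusted p under 0.05. *Kat6b* was at 0.38 (adjusted p = 0.0762) and *Ep300*, the p300 coactivator, at 0.34 (adjusted p = 0.0905). The 14 HDAC6 substrates and partners had 5 above 0 and a median of −0.03, none passed with or without adjustment, and the nearest to the threshold were the ubiquitin ligase *Stub1* (−0.19, adjusted p = 0.257) and the chaperone *Hsp90ab1* (0.12, adjusted p = 0.385).

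Of the 30 tested partners and kinases of class IIa enzymes 12 were above 0 and 18 below, with a median of −0.06, and 1 passed. This was *Camk2g*, which encodes the gamma subunit of CaMKII, a kinase that sends class IIa enzymes out of the nucleus. Its signal was 3.43, 3.29, 3.39 and 3.40 in WT hearts 1 to 4 and 3.95, 3.90, 3.83 and 3.72 in SIRT1 KO hearts 1 to 4. The hearts were well separated, the log2 fold change was 0.47 (SE 0.08, adjusted p = 0.0095), and the call passed under 21 of 22 alternatives, the exception being no scaling (0.26, adjusted p = 0.0880). The other CaMKII genes, named here after their values were seen, were at −0.20 for *Camk2a*, 0.29 for *Camk2b* and −0.09 for *Camk2d*, none past the test. The MEF2 genes, named here for their role and after their values were seen, were at 0.19 for *Mef2a*, −0.11 for *Mef2c* and −0.06 for *Mef2d*, none past the test, and *Mef2b* was not above background on any array.

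Of 12 tested genes that class IIa enzymes are known to hold down in heart or vessel, 5 were above 0 and 7 below, with a median of −0.24, and 1 passed. *Klf4*, which encodes a zinc finger factor that opposes hypertrophic gene expression in cardiomyocytes, was at 3.23, 3.31, 3.24 and 3.22 in WT hearts 1 to 4 and 2.94, 2.80, 2.84 and 2.89 in SIRT1 KO hearts 1 to 4. It fell by 0.38 on the log2 scale (SE 0.07, adjusted p = 0.0136), and this passed under all 22 alternatives. The other 11 genes did not pass and ran from −0.58 for *Xirp2* (adjusted p = 0.118) to 0.36 for *Acta1*, skeletal alpha-actin (adjusted p = 0.0911). Of the 7 tested fast skeletal muscle genes 4 were above 0 and 3 below, between −0.72 and 0.89 with a median of 0.07, and *Myh2* was not above background on any array. Only *Tnni2*, fast skeletal troponin I, passed, at 0.62 (SE 0.12, adjusted p = 0.0225), with 2.01, 1.92, 1.89 and 1.66 in WT hearts 1 to 4 and 2.63, 2.33, 2.71 and 2.30 in SIRT1 KO hearts 1 to 4. No SIRT1 KO heart overlapped the WT hearts, and the call passed under 14 of 22 alternatives and in 4 of the 8 fits with 1 array left out. The call was lost when WT replicate 2 (adjusted p = 0.0574), WT replicate 3 (0.0624), WT replicate 4 (0.0562) or SIRT1 KO replicate 1 (0.0638) was left out. Of the class III enzymes, which need NAD and not zinc, 3 of 7 tested genes were above 0 and 4 below, with a median of −0.10, and 2 passed, where 4.62% of all tested genes did. These were the brighter *Sirt1* probe described above and *Sirt4* (0.38, adjusted p = 0.0403).

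**Figure D4:**
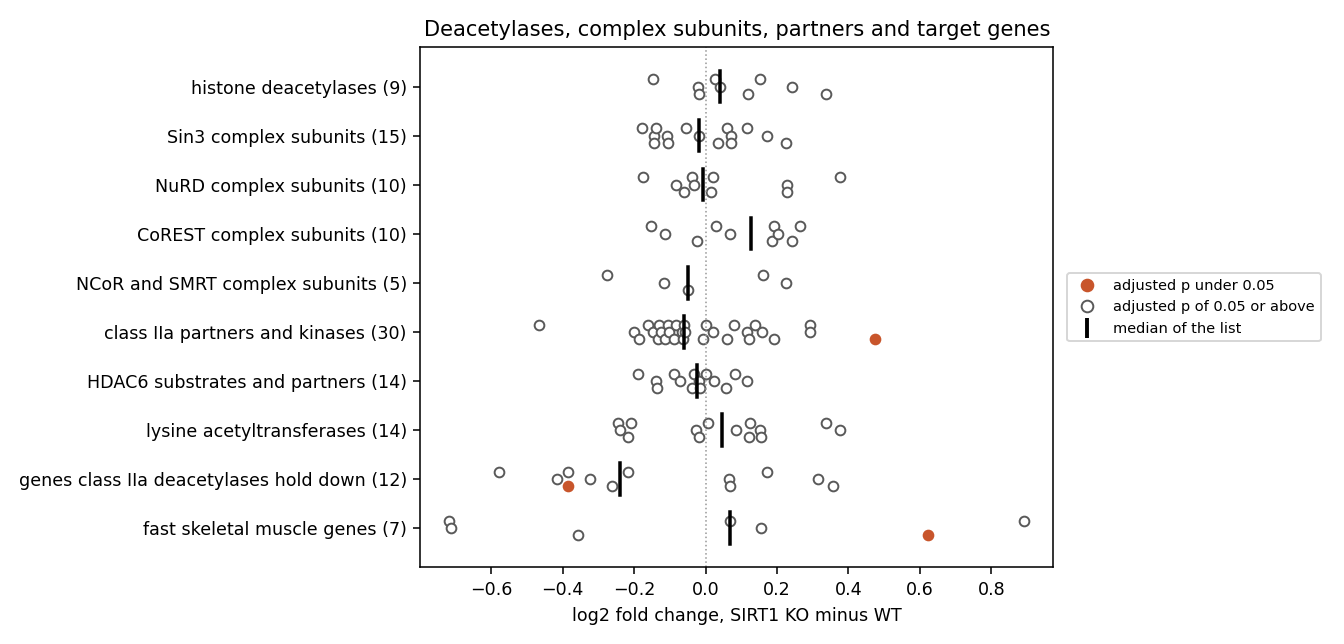
Log2 fold change (SIRT1 KO minus WT, x axis) of the deacetylases and of each of the 9 lists of subunits, partners and targets (rows, number of tested genes in brackets), 1 point per gene from its brightest tested probe, with black strokes for list medians. The filled points, with an adjusted p under 0.05, are *Camk2g* (0.47), *Klf4* (−0.38) and *Tnni2* (0.62), and no deacetylase is filled.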

How the data were processed

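Total RNA (500 ng) from 4 WT and 4 SIRT1 KO E18.5 hearts was labeled with Cy3 and hybridized to one-color Agilent arrays. The authors deposited spot intensities per array, after background subtraction by Agilent Feature Extraction and without scaling between arrays. The file headers name version 12.0.0.7 and the methods an earlier one. The series table holds the same values. The submitters' processing notes name Feature Extraction 12.

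Here log2 of the processed signal minus the array's 75th percentile was used. Spots of a probe were averaged without control and outlier spots. Accessions were matched to RefSeq names (GRCm38.p6), which named 28223 of 41174 probes. Tests used limma 3.58.1 (R 4.3.3; genotype only) on the 25624 probes that were well above background on 4 or more of the 8 arrays, with Benjamini-Hochberg adjustment at 0.05. An exact two-sided permutation test was added per probe (smallest p 0.0286). A gene is represented by its brightest tested probe where 1 value is needed. The labels do not say that hearts came from separate litters, and p values measure the spread between these samples. Each array had 59.5% to 65.0% of its probes well above background, no spot was saturated, and 4 arrays per genotype limit the precision.

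The genes named were all members, *Sirt1*, and in each list those past the threshold or otherwise the 2 with the smallest p, apart from some that are not reported here. Members and lists were chosen with earlier results of these data known. Scripts were tested on simulated data. Tables were made with Python 3.11.15, numpy 2.4.6, pandas 2.3.3 and scipy 1.17.1, and plots with matplotlib 3.10.9. Alternatives covered scaling, filter, test, array weights, replicate block, Y-linked covariate, threshold and each array left out, and 3 were added after seeing the data.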

Additional observations from a re-analysis of the deposited data

How the results depend on the processing

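Under 22 alternatives the 13 deacetylase probes gave 286 values. Of these 250 kept their direction and their side of the threshold, 5 passed it and 31 changed direction. The 6 alternatives that leave the fold change as it is cannot change a direction. All 31 changes of direction therefore fell among the 16 that recompute it, and the 250 include values that were bound to keep their direction. The 5 were *Hdac5* with array weights (0.39) and without SIRT1 KO replicate 3 (0.41), *Hdac9* A_52_P411780 with normexp on the median signal (0.29), and, with no scaling, *Hdac3* (−0.37, adjusted p = 0.0220) and *Hdac8* A_51_P481191 (−0.25, adjusted p = 0.0497). The count of deacetylase probes past the test was therefore 0 as reported, 2 with no scaling, 1 with array weights, 1 with normexp and 0 to 1 with 1 array left out. *Hdac5* and *Hdac9* A_52_P411780 were above 0 and *Hdac3* below 0 in all 16 that recompute the fold change.

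Changes of direction were as follows. With no scaling *Hdac2* was at −0.19, *Hdac9* A_51_P204031 at −0.16, *Hdac11* at −0.10, *Hdac7* A_51_P403234 at −0.066, *Hdac7* A_52_P435016 at −0.18 and *Hdac6* at −0.066. With median scaling *Hdac2* was at −0.11, *Hdac9* A_51_P204031 at −0.071, *Hdac11* at −0.013 and *Hdac7* A_52_P435016 at −0.092. With quantile normalization *Hdac2* was at −0.014 and *Hdac9* A_51_P204031 at −0.050, and the latter was at −0.030 with cyclic loess and −0.033 with array weights. With normexp *Hdac2* was at −0.083, *Hdac8* A_52_P464062 at 0.094 and *Hdac8* A_51_P481191 at 0.062. With SIRT1 KO replicates 1 and 4 left out for their liver signal, *Hdac9* A_51_P204031 was at −0.099, *Hdac7* A_52_P435016 at −0.022, *Hdac8* A_52_P464062 at 0.062 and *Hdac8* A_51_P481191 at 0.072. With 1 array left out, the range was −0.10 to 0.053 for *Hdac4*, −0.050 to 0.16 for *Hdac9* A_51_P204031, −0.037 to 0.086 for *Hdac7* A_52_P435016, −0.069 to 0.024 for *Hdac8* A_52_P464062 and −0.10 to 0.044 for *Hdac8* A_51_P481191. The median of the 9 genes was 0.04 as reported, −0.092 with median scaling, −0.18 with no scaling and 0.03 to 0.086 with 1 array left out. The number of deacetylase probes above 0 was 9 of 13 as reported, 7 with quantile normalization, 5 with median scaling and 3 with no scaling. Median scaling and no scaling move all probes alike, so relative to the median of all tested probes 9 of 13 were higher there as in the values reported, and 8 were with quantile normalization, 8 with cyclic loess and 10 with normexp.

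Over all tested probes 1257 passed as reported, 1909 with median scaling, 6351 with no scaling, 550 with the methods' analysis of variance, 2291 with array weights, 769 with the Y-linked covariate, 2281 at an adjusted p under 0.10, 2649 with normexp, 649 without the 2 arrays with liver signal, and 660 to 1827 with 1 array left out. Those higher in SIRT1 KO made up 81.2% as reported, 35.6% with median scaling, 10.1% with no scaling, 63.9% after quantile normalization and 70.4% after cyclic loess. Of partner genes 3 passed as reported, 21 with no scaling, 5 with array weights, 8 at an adjusted p under 0.10, 8 with normexp and 2 to 5 with 1 array left out. The cause of these shifts was not tested.

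The replicate numbers are shared by the genotypes, and the series speaks of pairs without saying what joins them. Deviations from the genotype means had correlations between same-numbered arrays of 0.20, 0.21, 0.06 and 0.14, not every one over 0.1, and the numbers were not taken to pair the hearts. As a hint from the data, every array correlated best with its own number. With the replicate block 1187 probes passed, 0 of them deacetylases, and 3 partner genes, while the *Sirt1* A_52_P358612 call was lost (adjusted p = 0.0644). Normexp on the mean signal was not run, since the columns used here hold the median signal instead. No slide block could be fitted, since each slide holds 1 genotype. Values of the 13 tested probes rest on signals with an assigned error of up to 14.2%.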
